A study of Mus musculus with 24 samples.

Results

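Mutually exclusive exon events are places in a gene where a transcript takes one of a pair of neighbouring exons and not the other. All rows of the deposited splicing tables whose event type was mutually exclusive exon were taken, which gave 560 of 8935 splicing events (6.27%) in 396 genes. Celf6 knockout (KO) mice were compared with wild-type (WT) mice at postnatal day 9, in brain tissue taken behind the thalamus after removal of the cortex. The CELF6 protein binds RNA, and other members of its family are known regulators of splicing. From each genotype there was total RNA (input) and RNA on ribosomes of serotonin cells, taken by translating ribosome affinity purification (TRAP) with a TRAP allele specific to serotonin cells. All 4 groups were labelled as coming from the same stage and region, the labels name no strain or sex, and they do not give the exons removed by the knockout. PSI (percent spliced in, here a fraction from 0 to 1) was deposited for 5 KO TRAP, 5 WT TRAP, 5 KO input and 4 WT input libraries.

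A pair of mutually exclusive exons usually arose by duplication, so both members code for versions of the same stretch of protein, and exchanging them changes a binding surface, a channel gate or a catalytic loop without changing the rest. Neurons use many such pairs: in SNAP-25 of the vesicle fusion complex, in glutamate receptor subunits (the flip and flop forms), in JNK kinases, tropomyosins, dynamins and pyruvate kinase. An event catalogue built by pairing exons, as used here, also lists neighbouring cassette exons and alternative first exons that need not exclude each other.

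The 19 libraries held 3390423 to 6861963 counts. Serotonin neuron markers summed to 4141 to 9380 CPM (counts scaled to a common library total) in TRAP and 127.8 to 249.3 in input, while oligodendrocyte markers summed to 864.7 to 5062 in TRAP and 4534 to 11140 in input, so each TRAP library also held RNA of other cells. The counts of WT input 2 and WT input 3 were closer to each other than those of repeat runs of single libraries (chi-square per gene 1.36 against 1.39 to 2.67). A value of about 1 is what sampling alone would give, and other pairs within a group had 26.2 to 95.3. The pair was therefore counted as 1 sample, the mean of both (WT input 2/3), so n is at most 3 for WT input. Some libraries went against their labels. Celf6 stood at 102 CPM in KO TRAP 1, within the 90.1 to 176 CPM of WT TRAP and above the 20.8 to 57.8 CPM of the other 4 KO TRAP libraries, and KO TRAP 1 held transcripts of both Xist (63.2 CPM) and the Y-linked gene Kdm5d (15.4 CPM). WT input 5 held 102 CPM of Celf6 against 16.1 to 33.3 CPM in the other WT input libraries. KO input held 4.88 to 24.0 CPM, which overlaps those WT values, so the level of Celf6 does not check the genotype of most input libraries. Xist stood at 36.3 CPM in WT input 5 and 0.502 CPM in WT TRAP 5, so that number does not stand for 1 brain. KO input 1 held 103 CPM of Xist and 0.0 CPM of Kdm5d, unlike KO TRAP 1, so number 1 of KO did not match either. Differences were refitted without KO TRAP 1 and without WT input 5, and refitted values are given beside those that lean on either. Nothing in the labels says more about how replicates were made than that 5 brains of each genotype were dissected, and p-values measure the spread between these libraries. In such tissue a change in the share of a cell type and a change within cells cannot be told apart.

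Which exon of a pair the deposited PSI counts was checked first, because every direction depends on it. By the file headers, PSI would be 1 where all transcripts carry the second exon. The same tables hold skipped exon events, whose PSI is the share of transcripts that include 1 exon, and 55 mutually exclusive events had such a value for both of their exons with the same flanking splice sites (at least 3 libraries each). In 26 of them the 2 skipped exon values differed by more than 2 on the log2 odds scale, and 25 of those had exons of unequal length. PSI lay on the side of the longer exon in 25 of these 25: in 17 of 17 where the first exon was longer and in 8 of 8 where the second was. Dlgap4, a scaffold gene of the postsynaptic density, shows the rule within 1 place on chromosome 2. Its first exon of 80 bases (mm10 chr2:156748023-156748102) was paired once with a second exon of 72 bases (chr2:156748332-156748403), with a mean PSI of 0.109, and once with the same exon extended to 89 bases (chr2:156748332-156748420), with a mean PSI of 0.893. In both cases the second exon was the one included (skipped exon PSI 0.944 and 0.964, against 0.0392 for the first), so the sign of PSI turned with the length.

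**Figure D1:**
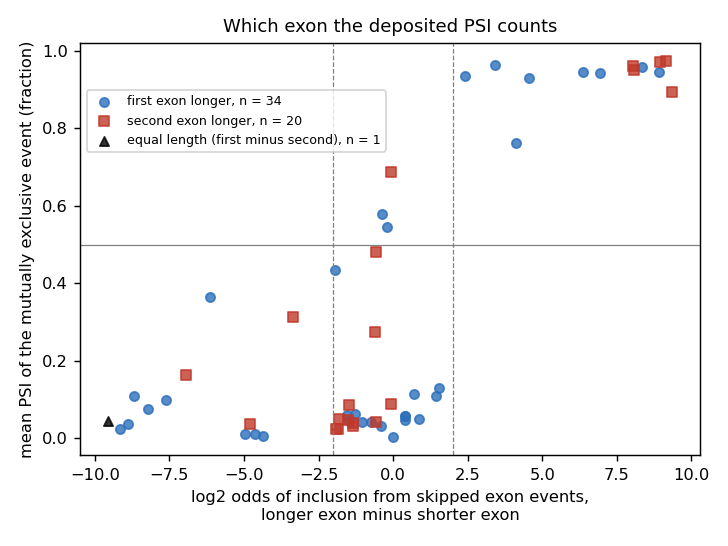
Mean PSI of 55 mutually exclusive events (vertical axis, fraction) against the difference in log2 odds of inclusion of the longer minus the shorter exon, taken from skipped exon events (horizontal axis). Circles have a longer first exon, squares a longer second exon, and the triangle is the 1 pair of equal length, plotted as first minus second. Outside the dashed lines at -2 and 2, the 25 pairs of unequal length have PSI below 0.5 on the left and above 0.5 on the right.

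Exon annotation pointed the same way. Among 105 unequal pairs with exactly 1 exon in the annotation of the count files, PSI lay on the side of the annotated exon in 89 if it counts the longer exon, in 46 if it counts the second and in 59 if it counts the first. PSI below is therefore read as the share of the isoform with the longer exon for the 278 pairs with a longer first and the 231 with a longer second exon. Pairs whose exons were both included below 0.1 by their skipped exon values are an exception, described below. For the 51 pairs of equal length the direction is not settled: of 4 that could be checked, PSI lay on the side of the first exon in Tpm1 (PSI 0.043, skipped exon PSI 0.06 for the first and 0.979 for the second exon), and on the side of the second in Kif21a, Adam23 and Abi1. Snap25, Pkm, Dnm1, Mapk8, Mapk9, Mapk10, Rab6a and 1 Tpm3 pair have equal lengths, so for them the text says only that PSI was higher or lower.

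The 560 events were varied in build. The exons had a median length of 110.5 (first) and 107.5 bases (second), with a range of 2 to 5217 bases. The length difference was a multiple of 3, which keeps the reading frame in coding sequence, in 281 pairs, 51 of them of equal length. Both exons were annotated in 256 events and neither in 101. Events often overlapped: they fell in 416 places when events sharing an alternative exon are joined, and 233 events shared their place with others. The mu opioid receptor gene Oprm1 alone gave 15 events, the cell adhesion gene Adam22 8 and the mitochondrial fission factor gene Mff 7. Events of 1 place share reads and are not independent of each other.

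Measurement was sparse. Every event had a PSI in at least 1 library, but 185 had a value in 1 library only, 116 in at least 10 and 30 in all 19. Host genes of often measured events had higher levels, with a median of 38.1 CPM for events with 1 value, 83.6 CPM for 5 to 9 values and 420 CPM for 19 values. Among the 116 events with at least 10 values, 24 had a mean PSI above 0.9, 42 below 0.1 and 50 (43.1%) between. That share was 11.9% in the 1983 events of the other splicing types with as many values. The number of reads behind a PSI is not used here, so its precision is known only through the filter, which kept values whose credible interval was at most 0.2 wide.

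**Figure D2:**
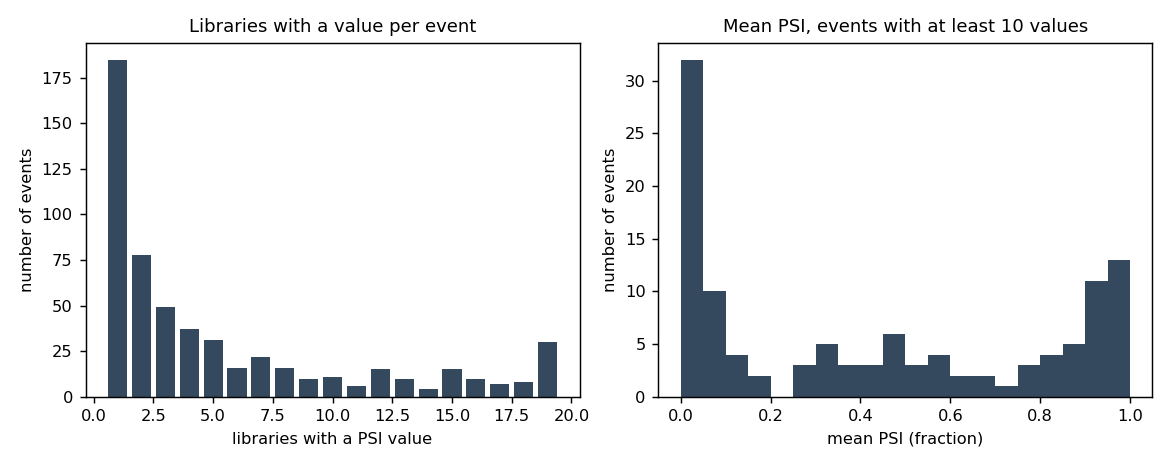
Left, number of events (vertical axis) by the number of the 19 libraries with a PSI value (horizontal axis). Right, mean PSI (fraction, horizontal axis) of the 116 events with at least 10 values against the number of events. A value in 1 library was the most frequent case (185 events), and mean PSI gathered near 0 and 1 with 50 events between 0.1 and 0.9.

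The exons of a pair did not always exclude each other. In the 55 events with a skipped exon value for both exons, 16 had one exon included above 0.8 and the other below 0.2. The tropomyosin gene Tpm1 was one of them, and so was the microtubule protein gene Mapt, which encodes tau (first exon 0.106, second 0.973). In 5 events both exons were included above 0.9, among them Pfdn5, a subunit of the chaperone prefoldin (0.95 and 0.961). In 29 events both exons were included below 0.5. Of these, 16 events of 13 genes had both exons included below 0.1, such as Fkbp1a, which encodes a binding protein of the immunosuppressant FK506, and Pebp1. The mutually exclusive PSI of those 16 events was 0.00414 to 0.115, on the side of the shorter exon in 16 of 16. In some of them, such as Kctd17 and Gtf2a2, the longer exon was nevertheless the more included by the skipped exon values. In others, such as Tomm5, the shorter exon was. For such events PSI is therefore not read as the ratio of the exons, and it says little about the main product of the gene. Why PSI lay on the side of the shorter exon was not tested.

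TRAP and input had nearly the same PSI for most events. Of 102 mutually exclusive events with at least 2 values in each of the 4 groups, 97 had mean PSI within 0.1 between TRAP and input, 54 were above 0.9 or below 0.1 in both, and 4 were on different sides of 0.5. PSI was limited to 0.01 to 0.99 and tested as log2 odds, log2(PSI/(1-PSI)), with genotype as a term. In that fit limma called 0 of 102 at an adjusted p below 0.05. The background was 1 of 1787 splicing events (0.0560%). That 1 was an alternative 3' splice site in Eef1b2, a translation elongation factor gene, whose mean PSI was 0.991 in both TRAP groups and 0.977 and 0.975 in KO and WT input. At an unadjusted limma p below 0.05 there were 8 mutually exclusive events, 3 higher and 5 lower in TRAP, against 169 of all events tested (9.46%). The median size of the difference was 0.323 for these events and 0.308 for all events.

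**Figure D3:**
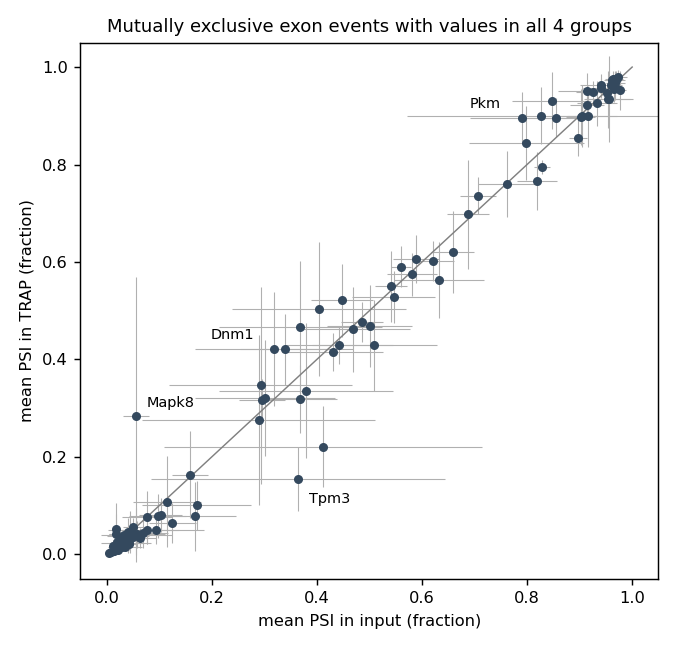
Mean PSI in TRAP (vertical axis) against mean PSI in input (horizontal axis), both fractions, for the 102 events tested. Points are events, bars are SD over libraries and the line marks equal PSI. The points lie along the line, and Mapk8 and Tpm3 lie farthest from it, with wide bars.

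The metabolic gene Pkm led the events that were higher in TRAP. Pkm encodes pyruvate kinase, the last enzyme of glycolysis, and its pair of exons (chr9:59675029-59675195 and chr9:59675568-59675734, 167 bases each) makes the PKM1 form of mature neurons and muscle or the PKM2 form of dividing cells. PSI was 0.798, 0.947, 0.901, 0.953 and 0.924 in KO TRAP and 0.817, 0.907, 0.870, 0.927 and 0.910 in WT TRAP. It was 0.697, 0.720, 0.773, 0.881 and 0.796 in KO input and 0.652, 0.901, 0.836 and 0.932 in WT input 1, 2, 3 and 5. The TRAP values ran from 0.798 to 0.953, while the input values ranged more widely, from 0.652 to 0.932, and overlapped them. Number 1 was the lowest library in each of the 4 groups. The mean was 0.896 ± 0.052 (SD, n = 10) in TRAP and 0.790 ± 0.098 (n = 8) in input. The log2 odds difference was 1.17 ± 0.42 (SE, limma adjusted p = 0.342). Over the alternatives fitted as log odds the limma adjusted p was 0.179 to 0.901. Within runs 1 and 2 the mean difference was 0.131 and 0.0587. Without KO TRAP 1 the log2 odds difference was 1.34, and without WT input 5 it was 1.48.

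**Figure D4:**
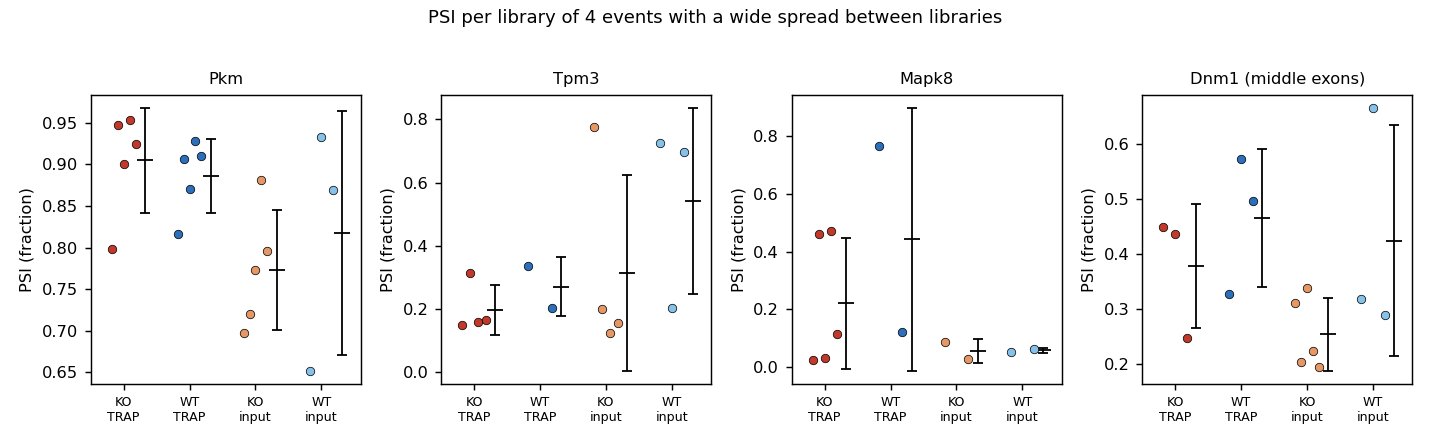
PSI (fraction, vertical axis) of the Pkm, Tpm3, Mapk8 and Dnm1 pairs in each library, by group. Points are libraries (WT input 2/3 as 1 point), and the bar beside them is mean and SD. Tpm3 in input and Mapk8 in TRAP each hold a high and a low set of libraries.

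The other events that were higher in TRAP by the smallest p were Dlgap4 with the extended second exon (log2 odds difference 1.77 ± 0.76), Apbb2, which encodes a binding partner of the amyloid precursor protein (0.44 ± 0.21), the transcription factor gene Atf2 (0.51 ± 0.26) and a pair in Mff (0.54 ± 0.29). Their limma adjusted p-values were 0.50 to 0.539. Apbb2 had similar differences within the runs, 0.0813 and 0.0659 in mean PSI. Atf2 differed by 0.0366 in run 1 and 0.175 in run 2, where input had 1 value, and the Mff pair by 0.0195 and -0.00313.

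Lower in TRAP by the smallest p were Ube2e2, a ubiquitin-conjugating enzyme gene (-1.04 ± 0.32), Snap25 (-0.48 ± 0.15), another Mff pair (-0.83 ± 0.31), the reticulon gene Rtn3 (-1.02 ± 0.41) and Slc25a3 with an extended first exon (-0.84 ± 0.34), with limma adjusted p-values of 0.290 to 0.402. Apart from Snap25 these sat near 0 in both kinds of RNA: mean PSI was 0.0205 in TRAP and 0.0417 in input for Ube2e2, 0.0336 and 0.0628 for Rtn3, and 0.00927 and 0.0219 for Slc25a3. Ube2e2 was among the 16 events whose exons were both included below 0.1, and Rtn3 lay just outside them (skipped exon PSI 0.109 and 0.0409). The Ube2e2 mean difference was -0.0350 in run 1 and -0.00342 in run 2. That of Slc25a3 was -0.0190 in run 1 and -0.0021 in run 2. Most TRAP values and some input values of this Slc25a3 pair lay below 0.01 and were set to that limit in the fit. Its log2 odds difference therefore rests in part on the limit. Without WT input 5 or without KO TRAP 1 these 10 differences kept their sign, and Snap25 was -0.34 and -0.55. Dlgap4 was 1.43, Rtn3 -0.81 and the higher Mff pair 0.41 without KO TRAP 1.

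Snap25 gave the smallest p for KO against WT in TRAP and showed it in every library. Snap25 encodes the SNARE protein of the presynaptic membrane, and its exons (chr2:136769743-136769860 and chr2:136770057-136770174, 118 bases each, both annotated) make the SNAP25a and SNAP25b forms, which exchange during brain maturation. PSI was 0.913, 0.873, 0.888, 0.874 and 0.891 in KO TRAP and 0.841, 0.801, 0.825, 0.832 and 0.813 in WT TRAP. In KO input it was 0.903, 0.904, 0.887, 0.906 and 0.904, and in WT input 1, 2, 3 and 5 it was 0.869, 0.879, 0.889 and 0.923. The 5 KO TRAP values all lay above the 5 WT TRAP values, and WT TRAP lay below all input libraries too. KO and WT input overlapped: WT input 5 lay above all KO input values, and WT input 3 (0.8886) above KO input 3 (0.8869). Without WT input 5, and only with WT input 2 and 3 averaged (0.884), the WT input values lay below all 5 KO input values.

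The Snap25 means were 0.888 ± 0.016 (SD, n = 5) in KO TRAP and 0.822 ± 0.016 (n = 5) in WT TRAP, a difference of 0.0656 in PSI with an exact permutation p of 0.00794 (2-sided), the smallest that 5 against 5 allows. In limma the log2 odds difference was 0.78 ± 0.15 (SE), with an adjusted p of 0.164 over the 1861 splicing events tested, so it did not pass. The adjusted p was 0.0494 when PSI itself was fitted without the log odds, 0.0676 when at least 4 values per group were asked for and 0.888 when the limits on PSI were set wider. Without KO TRAP 1 the difference was 0.68 (adjusted p = 0.228). In the authors' deposited table the event has a p-value of 0.000325 and an FDR of 0.0863. In input the means were 0.901 ± 0.0079 (n = 5) and 0.892 ± 0.028 (n = 3), which did not differ beyond their spread (exact permutation p = 0.554, 2-sided, where 0.0179 is the smallest possible). The input difference was 0.11 on the log2 odds scale, 0.36 without WT input 5 (limma adjusted p = 0.994) and -0.07 without WT input 1. The interaction, KO against WT in TRAP minus the same in input, was 0.68 ± 0.26 (limma adjusted p = 0.954), 0.58 without KO TRAP 1 and 0.42 without WT input 5. The level of Snap25 was 2340 to 3200 CPM in KO TRAP and 2700 to 3850 CPM in WT TRAP. The part that cells other than serotonin cells have in these PSI values was not tested.

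**Figure D5:**
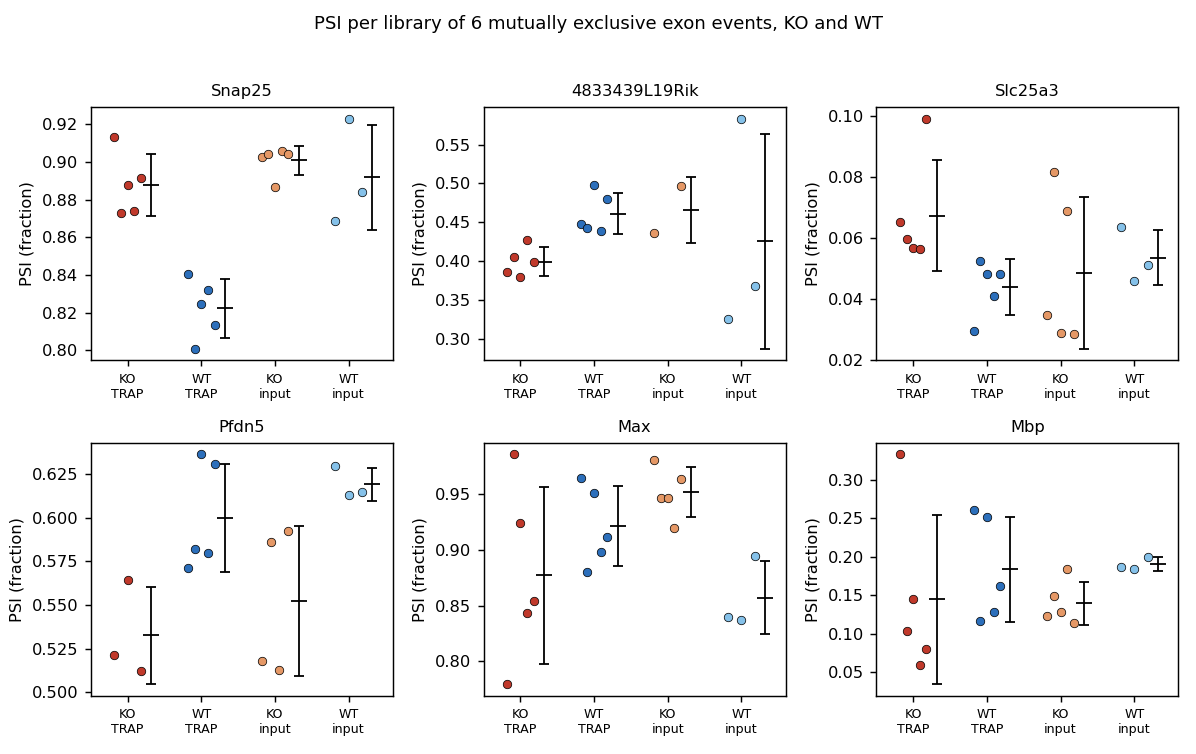
PSI (fraction, vertical axis, a scale of its own in each panel) of 6 events in each library, by group. Points are libraries (WT input 2/3 as 1 point) and the bar beside them is mean and SD. The Snap25, 4833439L19Rik, Slc25a3 and Pfdn5 groups do not overlap in TRAP, and Max, Mbp and Pfdn5 do not overlap in input. The Mbp input groups nearly meet, at 0.1836 in KO input 4 and 0.1841 in WT input 5.

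For KO against WT in TRAP limma called 0 of 102 mutually exclusive events at an adjusted p below 0.05, where the background was 1 of 1861 splicing events (0.0537%). The 1 called was a skipped exon listed under 9130401M01Rik and Zhx1. At an unadjusted limma p below 0.05 there were 9 mutually exclusive events, 3 higher and 6 lower in KO, and 112 of all events (6.02%). The median size of the difference was 0.369 on the log2 odds scale, against 0.332 for all. In the authors' deposited table too, 0 of 102 mutually exclusive events had an FDR below 0.05 in TRAP, and 0 of 88 in input.

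Of 41 mutually exclusive events with all 10 TRAP values, 4 had KO and WT values that did not overlap (9.76%), at 3 places in 3 genes. Among all splicing events with 10 values this held for 11 of 837 (1.31%). The 4 are Snap25, a pair in Slc25a3 and 2 overlapping pairs in 4833439L19Rik. Slc25a3 encodes the mitochondrial phosphate carrier, and its pair (chr10:91122207-91122331, 125 bases, and chr10:91121922-91122043, 122 bases) makes the muscle and the widespread form of the protein. PSI, the share of the longer first exon, was 0.0651, 0.0595, 0.0566, 0.0564 and 0.0990 in KO TRAP and 0.0295, 0.0525, 0.0483, 0.0410 and 0.0482 in WT TRAP. The first exon was thus the minor choice in all 10 libraries and a little less minor in KO. The difference was 0.65 ± 0.23 (limma adjusted p = 0.589, exact permutation p = 0.00794) and 0.65 without KO TRAP 1, and in input the means were 0.0485 ± 0.025 (n = 5) and 0.0535 ± 0.0090 (n = 3, of which WT input 5 was 0.0460).

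The 4833439L19Rik pair (chr13:54564515-54564621, 107 bases, and chr13:54564185-54564272, 88 bases) was used more evenly. PSI of the longer first exon was 0.386, 0.406, 0.380, 0.427 and 0.399 in KO TRAP and 0.448, 0.442, 0.498, 0.439 and 0.481 in WT TRAP. All 5 KO values were below all 5 WT values, by as little as 0.427 against 0.439. The difference was -0.36 ± 0.12 (limma adjusted p = 0.589, exact permutation p = 0.00794), and -0.34 without KO TRAP 1. Both exons were included in most transcripts by the skipped exon events (0.739 and 0.917), so the pair is not strictly exclusive. In input the 2 KO values (0.436 and 0.496) lay within the range of the 3 WT values, of which WT input 5 was the highest (0.583). Without WT input 5 both KO values lay above both WT values (0.326 and 0.368), the other order than in TRAP.

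In input no mutually exclusive event passed for KO against WT: limma called 0 of 68, with 0 of 1154 splicing events called in all (background 0%). The counts at an unadjusted limma p below 0.05 were 3 and 38 (3.29%). Max, which encodes the dimerisation partner of MYC, led. Its PSI, the share of the longer second exon of 108 bases over the first of 27 bases, was 0.981, 0.947, 0.947, 0.920 and 0.964 in KO input and 0.840, 0.909, 0.881 and 0.837 in WT input 1, 2, 3 and 5. KO and WT input did not overlap, and in TRAP they did, with means of 0.877 ± 0.079 and 0.921 ± 0.036 in the other order. The input difference was 1.84 ± 0.48 (limma adjusted p = 0.973, exact permutation p = 0.0179, the smallest possible).

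Mbp, which encodes myelin basic protein of oligodendrocytes, was next, with a mean PSI of 0.139 ± 0.028 (n = 5) in KO input and 0.190 ± 0.0086 (n = 3) in WT input for its longer second exon. The difference was -0.56 ± 0.20 (limma adjusted p = 0.973, exact permutation p = 0.0357), and Mbp itself stood at 3690 to 5280 CPM in KO and 3350 to 7280 CPM in WT input. In TRAP, where Mbp stood at 599 to 2270 CPM, PSI spread from 0.0599 to 0.333 and the genotypes overlapped. Apbb2 was higher in KO input (0.50 ± 0.20, limma adjusted p = 0.973), with means of 0.484 ± 0.047 (n = 4) and 0.399 ± 0.030 (n = 3). Without WT input 5 the differences were 1.71 for Max, -0.59 for Mbp and 0.47 for Apbb2.

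Pfdn5 differed in the same direction in both kinds of RNA. PSI of its longer first exon (chr15:102326433-102326535, 103 bases, over chr15:102326818-102326849, 32 bases) was 0.521, 0.564 and 0.512 in KO TRAP 2, 3 and 4, and 0.571, 0.582, 0.636, 0.580 and 0.631 in WT TRAP. In input it was 0.518, 0.586, 0.513 and 0.593 in KO 1, 2, 4 and 5, and 0.630, 0.625, 0.604 and 0.613 in WT 1, 2, 3 and 5. All KO values were below all WT values within each kind of RNA. The difference was -0.40 ± 0.17 in TRAP (limma adjusted p = 0.804, exact permutation p = 0.0179) and -0.40 ± 0.17 in input (limma adjusted p = 0.973, exact permutation p = 0.0857, and -0.41 without WT input 5). The smallest exact permutation p possible was 0.0179 in TRAP and 0.0286 in input. How often groups of such sizes fail to overlap over all splicing events was not counted, for Pfdn5 as for Max and Mbp. With WT input 2/3 as 1 value, the input groups of Apbb2 and Tcf7l2, of 4 KO and 3 WT values, did not overlap either. By the skipped exon events given above, most Pfdn5 transcripts carry both exons. By the series' design input and TRAP came from the same 5 brains per genotype, although number 1 in KO and number 5 in WT did not match. The values in input are therefore not taken as separate evidence.

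For the interaction limma called 0 of 102 mutually exclusive events and 0 of 1787 in all (background 0%), with 6 and 80 (4.48%) at an unadjusted limma p below 0.05. The median size of the interaction was 0.651 for these events and 0.504 for all events. The smallest p belonged to Mff, whose product recruits the fission machinery to mitochondria. For its exons of 159 (chr1:82741818-82741976) and 60 bases (chr1:82747083-82747142) PSI was 0.528, 0.438, 0.515, 0.517 and 0.491 in KO TRAP and 0.616, 0.564, 0.582 and 0.503 in WT TRAP 1 to 4. In input it was 0.636 and 0.584 in KO 1 and 2, and 0.460, 0.498 and 0.508 in WT 1, 2 and 3. Mean PSI in KO was thus lower in TRAP, although WT TRAP 4 lay below KO TRAP 1, 3 and 4. It was higher in input, where few libraries had a value, all of run 1. In TRAP the mean difference was -0.0936 in run 1 and 0.0005405 in run 2. The interaction was -1.16 ± 0.34 (limma adjusted p = 0.710) and -1.20 without KO TRAP 1.

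Another exon of Mff of 75 bases (chr1:82737013-82737087) was hardly used against either of these. PSI for the 159-base over the 75-base exon was 0.974 ± 0.010 in TRAP (n = 10) and 0.962 ± 0.015 in input (n = 6), and for the 75-base over the 60-base exon it was 0.0233 ± 0.0088 (n = 10) and 0.0429 ± 0.025 (n = 8). An exon of 89 bases (chr1:82735419-82735507) was used about as often as the 60-base exon, at 0.468 ± 0.085 in TRAP (n = 6) and 0.50 ± 0.081 in input (n = 4), with an interaction of -1.31 ± 0.51 (limma adjusted p = 0.954) and -1.07 without KO TRAP 1. Tcf7l2, a transcription factor gene of the Wnt pathway, had an interaction of -1.73 ± 0.68 (limma adjusted p = 0.954) from 2 values in each TRAP group. Both exons of that pair were included in most transcripts by the skipped exon events (0.961 and 0.9435), so it is not strictly exclusive.

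Among genes of the cytoskeleton and membrane traffic, 8 of the 26 listed had an event, 12 in all. Limma tested 8 of the 12 for TRAP against input, 7 for KO against WT in TRAP and 6 in input, and called 0 in each (unadjusted p below 0.05: 1, 1 and 0, the 1 being Snap25 each time). Tropomyosins, which coat actin filaments, varied by gene and by pair. The pair of 76-base exons of Tpm1 was nearly one-sided, with a PSI of 0.0380 ± 0.036 in TRAP and 0.0401 ± 0.040 in input, whereas an upstream pair of 134 and 118 bases was mixed at 0.318 ± 0.041 and 0.296 ± 0.044.

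Tpm3 held 2 sets of input libraries. PSI was 0.776 in KO input 1, 0.726 in WT input 1 and 0.697 in WT input 2, and 0.123 to 0.201 in KO input 2, 3 and 4 and WT input 5. In TRAP it was 0.148, 0.313, 0.157 and 0.166 in KO 2 to 5, and 0.336 and 0.204 in WT 2 and 3. The high input libraries thus belonged to both genotypes and to run 1, in which low libraries occurred too. TRAP minus input was -0.191 in mean PSI, -0.254 within run 1 and -0.0176 within run 2 (log2 odds -1.09 ± 0.80, limma adjusted p = 0.694). With 1 library left out at a time the log2 odds difference was between -1.42 (without WT input 5) and -0.51 (without KO input 1).

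The dynamin gene Dnm1, whose product pinches off endocytic vesicles, was mixed as well. For its pair of 139-base exons PSI was 0.450, 0.437 and 0.248 in KO TRAP 1, 4 and 5, and 0.328, 0.574 and 0.497 in WT TRAP 2, 3 and 5. Input gave 0.195 to 0.339 in KO (n = 5), 0.319, 0.286 and 0.292 in WT 1, 2 and 3, and 0.665 in WT input 5. WT input 5, whose Celf6 level also stood apart, was the highest of all. The difference between TRAP and input was 0.58 ± 0.41 (limma adjusted p = 0.683), and 0.89 without WT input 5. The clathrin light chain gene Clta (0.760 ± 0.068 in TRAP, 0.761 ± 0.055 in input) and the Golgi GTPase gene Rab6a (0.896 ± 0.040 and 0.855 ± 0.064) were close between the kinds of RNA.

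Of 20 listed signalling genes, 9 had 10 events, and limma called 0 of 6 for TRAP against input, 0 of 3 for KO against WT in TRAP and 0 of 2 in input (0 at an unadjusted p below 0.05 in each). The JNK kinases Mapk8, Mapk9 and Mapk10 carry the same kind of pair, 72 bases each, in the kinase domain. Mapk10, the neuronal JNK, was one-sided in all 19 libraries, at 0.0113 to 0.0486. Mapk9 was at 0.101 ± 0.051 in TRAP (n = 10) and 0.171 ± 0.10 in input (n = 6). Mapk8 scattered in TRAP, with 0.0225, 0.462, 0.0299, 0.472 and 0.112 in KO and 0.765 and 0.120 in WT 1 and 3, and was 0.0259 to 0.0871 in the 5 input libraries with a value. The Mapk8 difference was 2.34 ± 1.31 (limma adjusted p = 0.575), and the mean differences in runs 1 and 2 were 0.206 and 0.253. With 1 library left out at a time it was between 1.44 (without WT TRAP 1) and 3.01 (without KO input 3), with 2.76 without KO TRAP 1 and 2.12 without WT input 5. The tyrosine kinase gene Fyn used its longer first exon, the brain form, at 0.95 ± 0.022 in TRAP (n = 7) and 0.926 ± 0.033 in input (n = 4). Camk2d and Camk2b encode calcium and calmodulin dependent kinases. Camk2d stood at 0.922 ± 0.022 (n = 7) in TRAP and 0.914 ± 0.033 (n = 5) in input. Camk2b stood at 0.795 ± 0.015 (n = 4) in TRAP and 0.829 ± 0.015 (n = 4) in input, and its values did not overlap between them. The Camk2b difference was -0.33 ± 0.19 (limma adjusted p = 0.625).

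In metabolism and transport, Pkm and Slc25a3 were the 2 of 11 listed genes with an event, 3 events in all, and limma called 0 of 3 in each comparison (unadjusted p below 0.05: 2 for TRAP against input, 1 for KO against WT in TRAP). Among 20 transcription, chromatin and RNA-binding genes, 8 had 10 events, and limma called 0 of 2 for TRAP against input, 0 of 1 and 0 of 2 for KO against WT in TRAP and input, with 0 at an unadjusted p below 0.05. Mef2d, which encodes a transcription factor of neurons and muscle, took its longer first exon at 0.968 ± 0.018 in both TRAP (n = 8) and input (n = 6). The splicing regulator gene Rbfox1 took its longer second exon rarely, at 0.0462 ± 0.0077 (n = 5) and 0.0410 ± 0.016 (n = 7). Celf6 itself had an event whose PSI was 0.946 to 0.965 in WT TRAP 1, 2, 3 and 5. No KO library had a value for it, KO TRAP 1 included, and no input library had one.

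Ion channel and receptor genes were too rarely measured for a test: 6 of 22 listed genes had 1 event each and none had values in at least 2 libraries of every group. The flip and flop pairs of the AMPA receptor genes gave 2 values in Gria1 (0.941 in KO TRAP 2 and 0.918 in KO input 1), 2 in Gria2 (0.0471 in KO input 5 and 0.226 in WT input 2) and 1 in Gria3 (0.916 in KO input 5). The N-type calcium channel gene Cacna1b was measured in 5 libraries, at 0.0395 to 0.0928. The sodium channel genes Scn2a1 and Scn3a gave 3 values and 1 value.

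TRAP and input libraries did not measure the same events. In all, 188 events had no value in input and 75 had none in TRAP. Of the events with at least 5 values in one kind of RNA and none in the other, 10 were seen in TRAP and 0 in input. They are 6.8% of the 147 mutually exclusive events with at least 5 TRAP values, where the share over all splicing events was 62 of 2514 (2.47%). The reverse held for 0 of 109 and for 15 of 2058 (0.729%). TRAP had 1 library more, and the difference between these shares was not tested. The 10 include Trim24 (PSI 0.516 to 0.688 in 6 libraries), Jarid2, a chromatin regulator gene (0.166 to 0.469 in 5), the kinase gene Pak3 (0.0327 to 0.0632 in 5) and Oprm1 (0.0442 to 0.991 in 6). The median level of Oprm1 was 22.5 CPM in TRAP and 8.31 CPM in input, and that of Trim24 101 and 62.2 CPM. Over its 15 events Oprm1 had 43 values in TRAP and 13 in input.

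The authors' deposited table marks genes bound by CELF6 in crosslinking and immunoprecipitation. Such genes held 153 of the 560 mutually exclusive events (27.3%) and 2348 of all splicing events (26.3%). In TRAP, 35 of the 102 events tested for KO against WT were in bound genes, with 3 at an unadjusted limma p below 0.05 and a median size of the difference of 0.360, and 67 were in other genes, with 6 and 0.378. Snap25, Slc25a3 and Pfdn5 are marked as bound, and 4833439L19Rik and Max are not.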

How the data were processed

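PSI values are fractions between 0 and 1 that the authors deposited per library, made with MISO and kept up to a credible interval width of 0.2, per the labels' series design text. Gene counts are whole numbers deposited by the authors per library, from featureCounts on mm10, per the file headers. Trimmomatic, STAR and Subread are named without versions in the submitters' processing notes. Deposited p-values and FDR come from the authors' analysis of variance on log odds, per the file headers, and served only for comparison. Each of the 19 PSI columns was matched to a library by its title. The authors counted repeat runs of replicate 3 and a WT input library labelled an outlier, which have no PSI columns. The repeat runs entered only the check for alike libraries, and the outlier entered no comparison.

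PSI was held between 0.01 and 0.99, taken as log2(PSI/(1-PSI)) and fitted with limma 3.58.1 in R 4.3.3 over all splicing events together (without tandem untranslated region events), with Benjamini-Hochberg adjustment and a threshold of 0.05. Events needed at least 2 values in each of the 4 groups for TRAP against input and the interaction, and at least 3 per genotype for KO against WT. Exact permutation tests were 2-sided over libraries. CPM, counts scaled to a common library total, was used for description only. The fit was tested on simulated data.

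Events were named by rule: those past the threshold, the 5 with the smallest p in each direction for TRAP against input, the 4 with the smallest p in the other comparisons, and each measured event in listed genes. Of the differences printed with a limma value, 5 were added to the rule's 22 after values were seen. The members and lists were chosen with earlier results of these data known. Alternatives were other limits, no log odds, sequencing run as a covariate, other minimum numbers of values, a replicate block, and leaving out each library. The same 5 brains per genotype gave TRAP and input, per the series design text, so a replicate number shared by both should mark a brain. Number 1 of KO and number 5 of WT went against that. Deviations of same-numbered libraries had r of -0.00249 to 0.0891 in KO and -0.0272 to 0.0409 in WT. No sequence of the exons is printed, since no genome was used here.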

Additional observations from a re-analysis of the deposited data

Results flagged for a closer look

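In 76 groups of 4 or 5 values of named events, 9 had a library that stood apart from the others by Dixon's test at the 95% level, where chance gives about 1 in 20. KO input 1 stood apart in 4 events: it was at 0.0963 in an Mff pair (the others 0.0298 to 0.0421), at 0.749 in Tcf7l2 (0.494 to 0.530), and at 0.776 and 0.700 in the overlapping Tpm3 pairs (0.123 to 0.200 and 0.104 to 0.179). KO TRAP 3 was the high library of the same Tpm3 pairs in TRAP, at 0.313 (0.148 to 0.166) and 0.239 (0.104 to 0.126). KO TRAP 5 was at 0.0990 in Slc25a3, where the other KO TRAP libraries were at 0.0564 to 0.0651. WT TRAP 1 was at 0.136 in the Tpm1 pair of 76-base exons, against 0.0168 to 0.0424. KO input 3 was at 0.887 in Snap25, against 0.903 to 0.906.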

How the results depend on the processing

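The number of mutually exclusive events called by limma was 0 in 86 of 87 alternatives over the 4 comparisons. For KO against WT in TRAP it was 1 (Snap25) when PSI was fitted without the log odds, a difference of 0.0656 in PSI with an adjusted p of 0.0494. With each library left out in turn the count was 0 throughout, lowest and highest. With the replicate block, the fit that pairs libraries by number, it was 0 in each comparison, so no call changed. The events at an unadjusted limma p below 0.05 were 6 for TRAP against input and 7 for KO against WT in TRAP. They were 5 for KO against WT in input and 1 for the interaction. These counts were not set against all splicing events of the same fit, so they are not read as a result. For KO against WT the block joins a KO and a WT animal that the labels do not pair. For TRAP against input and the interaction it kept only numbers 1 and 5 of WT, and number 5 did not match. It also kept number 1 of KO, which did not match either. The block is therefore no check on the calls. Of 641 alternative values of 27 named differences, 639 kept their sign. The exceptions were an Mff pair for TRAP against input (-0.00313 in mean PSI within run 2, where input had 1 value) and Snap25 for KO against WT in input (-0.0683 without WT input 1, and -0.0683 to 0.36 over each library left out). The cause was not tested. Values near 0 or 1 rest on the limits set on PSI: all Slc25a3 values with the extended first exon lay beyond the narrower limits and gave no difference there. Few libraries per event limit what could be called, and events of 1 place share reads.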
